A study of Homo sapiens with 48 samples.

Results

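The oxidative phosphorylation subunit genes described here were the rows of the deposited expression table whose gene symbol begins with NDUFA, NDUFB, NDUFC, NDUFS, NDUFV or UQCR, with COX4 to COX8, or with ATP5, together with SDHA, SDHB, SDHC, SDHD and CYC1. Assembly factors with symbols beginning NDUFAF were left out. This gave 90 of 19102 genes, with 40 in complex I, 4 in complex II, 10 in complex III, 17 in complex IV and 19 in complex V. The symbols are older ones, so that ATP5A1, for example, is now called ATP5F1A, and complexes follow the old names.

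The cells were A382, an established human glioblastoma line, grown in culture, and RNA with a poly(A) tail was sequenced with a stranded kit. The p53 experiment had 2 libraries of cells with a doxycycline-inducible p53 (A382_P53) and 2 of cells with a control vector (A382_PCW), all 4 collected at day 2 of doxycycline. The knockout experiment had 36 libraries of cells infected with lentiviral guide RNAs against 16 chromatin genes, and 8 libraries of non-targeting guides (sgNeg1 to sgNeg4, 2 libraries each), all collected at day 9. BRD8, a bromodomain subunit of the EP400/TIP60 histone acetylation and exchange complex, and the histone variant H2AZ had 4 libraries each from 2 guides. ACTL6A, DMAP1, EP400, GAS41, ING3, MEAF6, MORF4L1, MORF4L2, MRGBP, RUVBL1, RUVBL2, TIP60, TRRAP and VPS72 had 2 libraries each, 1 per guide. The labels do not say whether any infected population was cloned, or whether libraries of 1 group came from separate cultures, so each p-value reflects only how far these libraries spread, and that spread could be technical.

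Oxidative phosphorylation is the route by which mitochondria turn the oxidation of nutrients into ATP. Complexes I and II feed electrons from NADH and succinate into ubiquinone, complex III passes them to cytochrome c, complex IV hands them to oxygen, and the proton gradient built on the way drives complex V, the ATP synthase. Most subunits are made from nuclear genes, such as those described here, while a small set in complexes I, III, IV and V comes from mitochondrial DNA and is not among these rows. Many glioblastoma cultures draw on both this route and glycolysis.

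Expression was deposited as FPKM, the fragments assigned to a gene scaled to transcript length and library size, in 5 sections of the table that had been normalized separately. Each group was therefore compared within its own section, on log2(FPKM + 1), and a gene was tested if it reached 1 FPKM in at least 2 libraries of the section. A gene was called when its p-value from limma's linear model, adjusted over all tested genes, was under 0.05. Differences below are on this log2 scale with their standard error (SE), knockout or p53 minus control, and they understate the change of weakly expressed genes. The low values show that 1 FPKM stood for 4.22 to 21.1 fragments per kilobase, depending on the library. The columns of the MEAF6 and VPS72 guide 2 libraries held identical values in all 19102 genes, so neither was used and each of these targets rested on 1 library. The targeted gene was called lower in 8 of the 16 knockouts, among them H2AFZ (18.6% of sgNeg4), RUVBL2 (28.5% of sgNeg3) and BRD8 (43.1% of sgNeg1). The MORF4L1 and MORF4L2 transcripts stood at 103% and 92.8% of sgNeg3. The glial markers GFAP, OLIG2 and S100B did not exceed 0.347 FPKM in any library, whereas VIM ran between 926 and 11300 FPKM and CD44 between 118 and 643 FPKM. SOX2 did not exceed 0.233 FPKM in the BRD8 section but was at least 6.64 FPKM in every library of the other sections. The sections were normalized separately, so these levels are not comparable and do not show that the cells differed in SOX2. The intronless row UQCRHL, described below, was also far lower in the BRD8 section, and the cause was not tested for either gene. EGFR ran between 3.15 and 28.7 FPKM, and NES reached 8.75 FPKM in the p53 section. Of the immune markers PTPRC and AIF1 did not exceed 0.097 and 0.173 FPKM, but CD68 ran between 0.978 and 74.0 FPKM. Of the endothelial markers PECAM1 and CDH5 did not exceed 0.0538 and 0.153 FPKM, and VWF reached 3.28 FPKM in the p53 section. Of the neuronal markers RBFOX3 did not exceed 0.333 FPKM, while SYT1 ran between 10.2 and 99.6 FPKM. The part of other cell types in the results was not tested.

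Of the 90 subunit genes, 78 were tested in all 17 comparisons with controls, 7 in some and 5 in none. The 5 were COX4I2, COX6A2, COX7A1 and COX8C, which are tissue-restricted forms of cytochrome c oxidase subunits, and ATP5L2, and none of them exceeded 1.23 FPKM in any library. Their partners COX4I1, COX6A1 and COX7A2 were abundant, with means of 544, 211 and 245 FPKM in the A382_PCW libraries. COX6B2, a form of COX6B1 best known from testis, was present at 5.49 FPKM in sgNeg2, 10.3 FPKM in sgNeg3 and 9.86 FPKM in sgNeg4 (means, n = 2 each). It stood at 0.127 FPKM in A382_PCW and 0.583 FPKM in sgNeg1. These sections were normalized separately, so the means are not comparable with each other. COX7B2, another testis form, averaged 1.17 FPKM in sgNeg2, while COX7B averaged 465 FPKM there. NDUFA4L2, a paralog of NDUFA4 known to be induced by hypoxia, lay at 2.69 FPKM in A382_PCW, against 49.0 FPKM for NDUFA4. Both NDUFA4 and NDUFA4L2 are counted with complex I by symbol here, although the NDUFA4 protein is now placed with complex IV.

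Some rows are not plain subunits. NDUFC2-KCTD14 is a readthrough transcript and did not exceed 1.82 FPKM. ATP5J2-PTCD1, another readthrough, overlaps the gene PTCD1 and is treated with caution below. UQCRHL is an intronless near-copy of UQCRH, so fragments can be shared between them, and SDHA has near-identical pseudogenes. UQCRHL stood between 0.14 and 0.761 FPKM in the BRD8 section and between 202 and 679 FPKM elsewhere, and the cause of this was not tested. ATP5S and ATP5SL take an ATP synthase name, but ATP5SL is now known as a complex I assembly protein.

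The p53 comparison shows what happens to these genes when p53 is raised in a glioblastoma line. Subunit genes of all 5 complexes were lower in A382_P53. Of 81 tested, 75 (92.6%) were called lower, 3 were called higher and 3 were not called. Across all 12203 tested genes 84.3% were called, 46.7% lower and 37.6% higher. The members' median difference was −0.89, with quartiles of −1.15 and −0.62, beside a median of −0.13 over all tested genes. Their summed FPKM made up 2.75% and 2.76% of the total in the A382_P53 libraries, against 4.76% and 4.79% in the A382_PCW libraries. In RNA from whole cultures, fewer cells expressing a gene and less of its RNA per cell cannot be told apart.

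**Figure D1:**
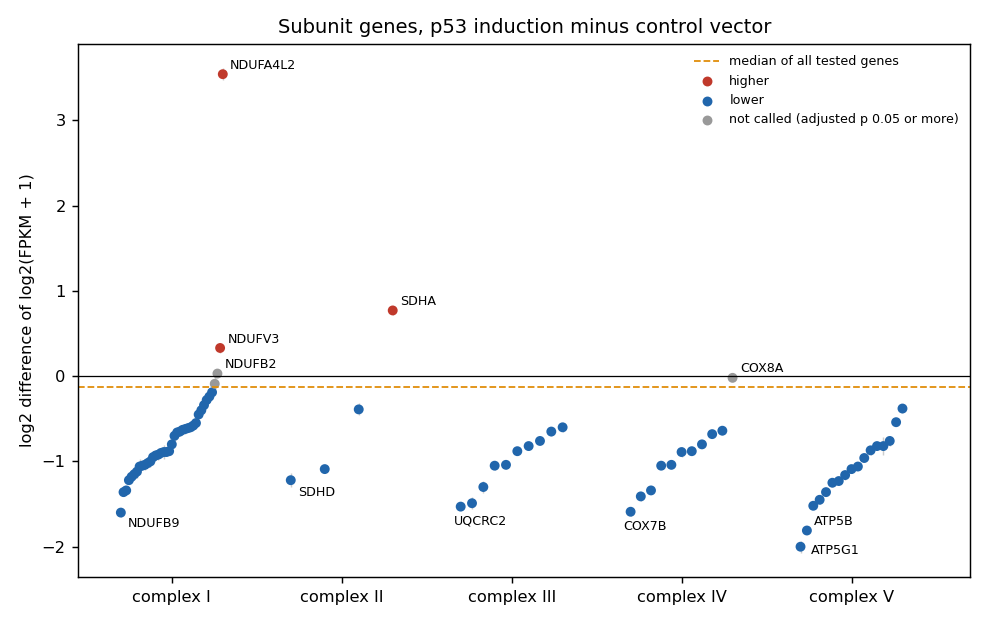
Each point is a subunit gene, placed by respiratory complex on the x axis and by its difference A382_P53 minus A382_PCW on the log2(FPKM + 1) scale on the y axis, with bars of 1 SE where larger than the point. Blue points were called lower, red higher and grey not called, and the dashed line is the median of all tested genes (−0.13). All 10 complex III genes and all 17 complex V genes lie below that line, and NDUFA4L2 lies alone near 3.54.

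Complex V, the ATP synthase, had the lowest median of the 5 complexes (−1.09), and all 17 of its tested genes were called lower. ATP5B, which encodes the catalytic beta subunit, had 315 and 316 FPKM in A382_P53, against 1100 and 1110 FPKM in A382_PCW. That is a difference of −1.81 ± 0.04 (SE; adjusted p = 3.59e-08), and the pairs of libraries were far apart. ATP5G1, 1 of 3 genes for the proton-carrying subunit c, had 84.7 and 72.9 FPKM in A382_P53, against 318 and 318 FPKM in A382_PCW (−2.0 ± 0.07, adjusted p = 2.23e-07). This was the largest fall among the 81 genes. The other genes of these modules were named after their values were seen. The other subunit c genes followed, ATP5G3 with −1.45 and ATP5G2 with −0.87. The 5 genes of the F1 head had a median of −1.23, with ATP5A1, the alpha subunit, at 131 and 133 FPKM in A382_P53 and 308 and 315 FPKM in A382_PCW. The smallest fall in the head was that of ATP5E, the epsilon subunit, at −0.54. The 4 genes of the peripheral stalk lay between −1.36 and −1.06, and the 3 small membrane subunits ATP5I, ATP5J2 and ATP5L between −1.16 and −0.82.

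All 10 complex III genes were called lower, with a median of −0.96. UQCRC2, a core protein of the complex, had 39.9 and 41.5 FPKM in A382_P53, against 120 and 119 FPKM in A382_PCW (−1.53 ± 0.04, adjusted p = 1.07e-07). UQCRFS1, the Rieske iron-sulfur protein, had 56.2 and 65.5 FPKM in A382_P53, against 168 and 177 FPKM in A382_PCW (−1.49 ± 0.07). In both genes each A382_P53 library was far below either A382_PCW library. CYC1, which carries the heme that reduces cytochrome c, fell by 1.30, and UQCRC1 by 0.65. UQCRH and its near-identical copy UQCRHL gave −1.05 and −1.04.

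In complex IV 10 of 11 tested genes were called lower, with a median of −0.89. COX7B had 266 and 253 FPKM in A382_P53, against 769 and 799 FPKM in A382_PCW (−1.59 ± 0.05, adjusted p = 1.05e-07). COX5B had 202 and 183 FPKM in A382_P53, against 508 and 516 FPKM in A382_PCW (−1.41 ± 0.05). COX8A was the exception, with 518 and 524 FPKM in A382_P53 inside the range of 515 to 539 FPKM in A382_PCW (−0.02 ± 0.04, adjusted p = 0.744). COX4I1 and COX5A, the first nuclear-encoded subunits to join the enzyme, fell by 0.89 and 0.80. COX6B2 stayed below the filter, at 0.89 and 0.49 FPKM in A382_P53 and 0.152 and 0.103 FPKM in A382_PCW.

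In complex I 35 of 39 tested genes were called lower, 2 higher and 2 not, with a median of −0.80. The 7 core subunits were all lower, at a median of −0.89. NDUFS1, which holds iron-sulfur clusters of the electron path, had 16.9 and 17.8 FPKM in A382_P53, against 45.9 and 45.0 FPKM in A382_PCW (−1.34 ± 0.05, adjusted p = 4.07e-07). NDUFV1, the NADH-oxidising subunit, had 55.2 and 55.2 FPKM in A382_P53, against 101 and 107 FPKM in A382_PCW (−0.90 ± 0.05). Both core genes were thus lower in each A382_P53 library than in either A382_PCW library. Among the 30 supernumerary subunits 27 were called lower (median −0.67). NDUFB9 fell most, with 144 and 137 FPKM in A382_P53, against 418 and 434 FPKM in A382_PCW (−1.60 ± 0.05). NDUFAB1, the mitochondrial acyl carrier protein, fell by 1.36. NDUFB2 (0.03 ± 0.04, adjusted p = 0.515) and NDUFC2 (−0.09 ± 0.09, adjusted p = 0.339) were not called.

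Complex II behaved differently from gene to gene. SDHB, its iron-sulfur subunit, had 50.5 and 47.3 FPKM in A382_P53, against 103 and 106 FPKM in A382_PCW (−1.09 ± 0.05), and the membrane anchor SDHD had 13.2 and 13.3 FPKM in A382_P53, against 34.9 and 29.6 FPKM in A382_PCW (−1.22 ± 0.08). SDHA, the flavoprotein that oxidises succinate, went the other way, with 128 and 124 FPKM in A382_P53, against 71.6 and 75.2 FPKM in A382_PCW (0.77 ± 0.05, adjusted p = 3.39e-06). So the enzyme's catalytic pair of subunits changed in opposite directions, subject to the caution on SDHA pseudogenes. The other anchor, SDHC, had 12.3 and 12 FPKM in A382_P53 and 15.5 and 17.1 FPKM in A382_PCW (−0.39 ± 0.07, adjusted p = 0.00104), and its difference was 0.04, not called, once a trend with transcript length was removed.

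NDUFA4L2 and NDUFV3 were the other genes called higher. NDUFA4L2 had 43.5 and 40.4 FPKM in A382_P53, against 2.63 and 2.76 FPKM in A382_PCW, a level 15.6 times as high (3.54 ± 0.07, adjusted p = 2.48e-08). NDUFA4 had 23.8 and 23.5 FPKM in A382_P53 and 47.7 and 50.3 FPKM in A382_PCW (−1.02 ± 0.05). On the length-scaled FPKM values the paralog thus stood above NDUFA4 in A382_P53 and below it in A382_PCW. NDUFV3, an accessory subunit beside the NADH site, had 38.1 and 34.7 FPKM in A382_P53, against 27.7 and 29.7 FPKM in A382_PCW (0.33 ± 0.06, adjusted p = 0.00194).

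**Figure D2:**
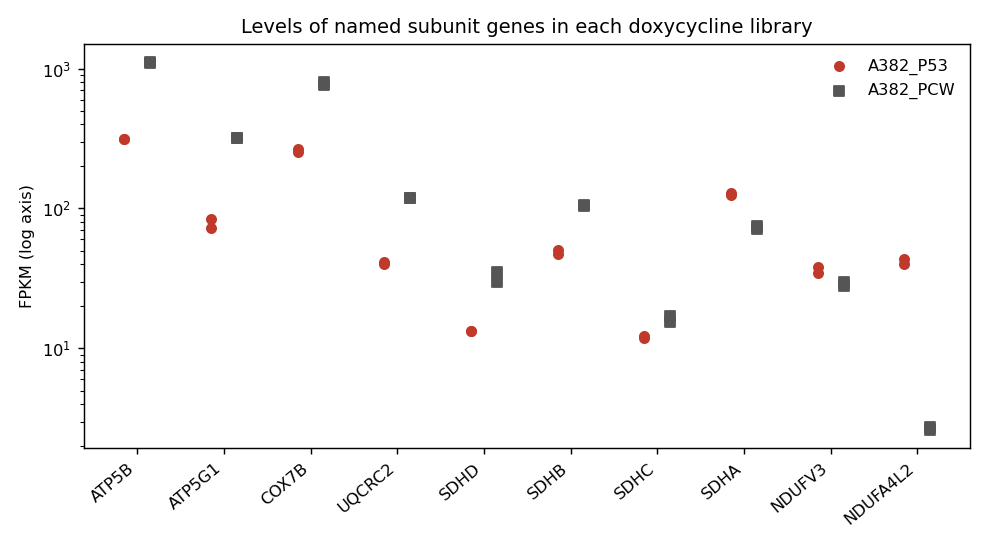
FPKM on a log axis of 10 subunit genes in each A382_P53 library (red circles) and each A382_PCW library (grey squares). ATP5B to SDHC are lower in A382_P53, SDHA and NDUFV3 are higher, and NDUFA4L2 is the only 1 of the 10 that stands near 3 FPKM in A382_PCW.

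Centring each library on its own median moved the median of all genes by 0.12, to −0.01, and left 73 members called lower and 4 higher, with a member median of −0.78. Removing a trend with transcript length gave 69 lower and 8 higher (median −0.62). Removing a trend with expression level, an alternative chosen after seeing the data, gave 71 lower and 6 higher (median −0.69). Calls over all genes under these scalings are not given here. Complexes III and V kept 10 of 10 and 17 of 17 genes lower under each of these scalings. With the length trend removed, NDUFB8 and NDUFS8 turned to 0.13 and 0.13, and COX8A, NDUFB2 and NDUFC2 were called higher. The members are short, with a median transcript length of 757 bases, beside 2330 bases over all genes. Across the 81 members the difference had a Spearman correlation of −0.22 with the A382_PCW level and of −0.15 with length, a description of genes that share the same 4 libraries. Over 12164 tested genes the correlation with length was 0.06, and the part of length in the differences was not tested.

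Other genes of the pathway were described from lists made by function. Of 53 assembly factors, which build the complexes but stay out of them, 38 were called lower and 8 higher (median −0.66). Among all tested genes 46.7% were called lower and 37.6% higher. TMEM126B, needed for complex I assembly, had 14.3 and 13.1 FPKM in A382_P53, against 90.2 and 85.9 FPKM in A382_PCW (−2.60 ± 0.06). COX10, an enzyme of heme A synthesis, and NDUFAF4 fell by 1.75 and 1.49. In contrast, ATPAF2, a chaperone of the F1 head, had 47.2 and 45.6 FPKM in A382_P53, against 7.6 and 8.77 FPKM in A382_PCW (2.37 ± 0.07), while SDHAF1 and SURF1 were higher by 1.59 and 1.43. The assembly list thus held members far apart in both directions. SCO2, a copper chaperone of complex IV and a textbook p53 target, had 35.7 and 31.5 FPKM in A382_P53 and 29.7 and 34.1 FPKM in A382_PCW (0.07 ± 0.08, adjusted p = 0.448).

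Of 19 tested regulators of mitochondrial genes 16 were called lower and 1 higher (median −0.55). Beside this list and the 2 that follow, 46.7% of all 12203 tested genes were called lower and 37.6% higher. MYC had 25.8 and 23.5 FPKM in A382_P53, against 109 and 108 FPKM in A382_PCW (−2.09 ± 0.06). PPARGC1B and TFB2M, a coactivator and a mitochondrial transcription factor, fell by 1.35 and 1.34. PPARGC1A, a coactivator of respiratory genes, was the 1 called higher, with 14.0 and 15 FPKM in A382_P53 and 7.13 and 6.39 FPKM in A382_PCW (1.00 ± 0.08). NRF1, the transcription factor, was not called (−0.05 ± 0.08). In the tricarboxylic acid cycle, which supplies the NADH and succinate, 16 of 17 genes were called lower and none higher (median −1.15). Of 8 tested carriers 7 were lower and VDAC3 was higher, and CYCS, cytochrome c, fell by 1.42.

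Promoter sequence was available for 71 of the 90 genes, as windows of 250 bases before and 50 bases after the annotated start, from RefSeq on GRCh38.p14. The letters CCGGAAG, read by ETS factors such as GABP, were present on either strand in 19 of the 71 windows (26.8%), beside 10.7% of all 27305 promoters. The NRF1 letters, GCGCA, any base N and GCGC, were in 16 (22.5%, beside 6.28%), and the YY1 letters AAGATGGC in 11 (15.5%, beside 3.03%). The MYC E box CACGTG was in 7 (9.86%, beside 7.43%). A single form of the core letters of a p53 site was searched, CATG, 6 bases of any kind and CATG. It was in none of the 71 windows (0.0%, beside 0.392%), and so rare a string says little over that number. A match is a string of letters and not a measured binding site, the search allowed matches to overlap, and a missing match says nothing about a factor. The 250 bases before the start of 4 genes that differed under p53 are shown, since they include both directions of change, with capitals marking the ETS, NRF1 or E box letters on either strand.
SDHA, higher in A382_P53, chr5:218070-218319, plus strand, 4 NRF1-type matches: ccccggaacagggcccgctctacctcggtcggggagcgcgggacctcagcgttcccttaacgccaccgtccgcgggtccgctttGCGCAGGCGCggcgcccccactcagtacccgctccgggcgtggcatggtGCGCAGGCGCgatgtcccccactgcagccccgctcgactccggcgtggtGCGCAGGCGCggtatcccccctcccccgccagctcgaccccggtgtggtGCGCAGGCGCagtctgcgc
SDHD, lower in A382_P53, chr11:112086623-112086872, plus strand, 1 NRF1-type and 1 ETS-type match: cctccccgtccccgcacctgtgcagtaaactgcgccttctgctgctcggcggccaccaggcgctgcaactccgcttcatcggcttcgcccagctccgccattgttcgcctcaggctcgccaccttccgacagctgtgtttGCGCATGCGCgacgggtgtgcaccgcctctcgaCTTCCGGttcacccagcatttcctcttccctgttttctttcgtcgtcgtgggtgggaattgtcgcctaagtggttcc
ATP5G1, lower in A382_P53, chr17:48892537-48892786, plus strand, no match in the bases shown and 1 E box in the rest of the 300-base window: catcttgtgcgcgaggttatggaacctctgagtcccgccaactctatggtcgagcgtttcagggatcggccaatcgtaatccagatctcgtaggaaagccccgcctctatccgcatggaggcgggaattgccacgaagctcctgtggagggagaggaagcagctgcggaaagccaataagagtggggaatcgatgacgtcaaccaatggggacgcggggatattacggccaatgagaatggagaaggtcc
NDUFA4L2, higher in A382_P53, chr12:57240763-57241012, minus strand, no match in the bases shown or the rest of the window: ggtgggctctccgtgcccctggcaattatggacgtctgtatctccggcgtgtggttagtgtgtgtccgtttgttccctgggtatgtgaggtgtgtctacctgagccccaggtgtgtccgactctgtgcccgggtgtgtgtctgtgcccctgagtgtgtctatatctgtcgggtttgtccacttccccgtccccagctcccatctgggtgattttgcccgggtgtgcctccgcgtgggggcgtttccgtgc

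Across the 16 knockouts the subunit genes gave 52 calls in 42 genes, with 31 of the calls in BRD8, 13 in TIP60, 4 in TRRAP, 3 in RUVBL2 and 1 in RUVBL1. Among all tested genes the shares called were 45.9% in BRD8, 42.0% in TIP60, 14.2% in TRRAP, 33.4% in RUVBL2 and 27.8% in RUVBL1. In this fit the members were called less often than other genes in each of these knockouts. The plot of library medians shows that the group as a whole shifted far less than under p53. It also shows that control libraries of 1 pair could stand apart. The first sgNeg2 library was above the second in 74 of 75 well-measured members, by a median of 0.29 log2 units, and the first sgNeg4 library was above the second in 74 of 77, by 0.43. Over all genes those gaps were 0.14 and 0.14. The 2 MORF4L2 libraries differed by −0.70 in the members and the 2 MRGBP libraries by 0.56, so gaps within a pair were as large as the knockout medians in these sections. The MORF4L2 and MRGBP pairs held 1 library per guide, so their gaps cannot be told apart from a difference between guides.

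**Figure D3:**
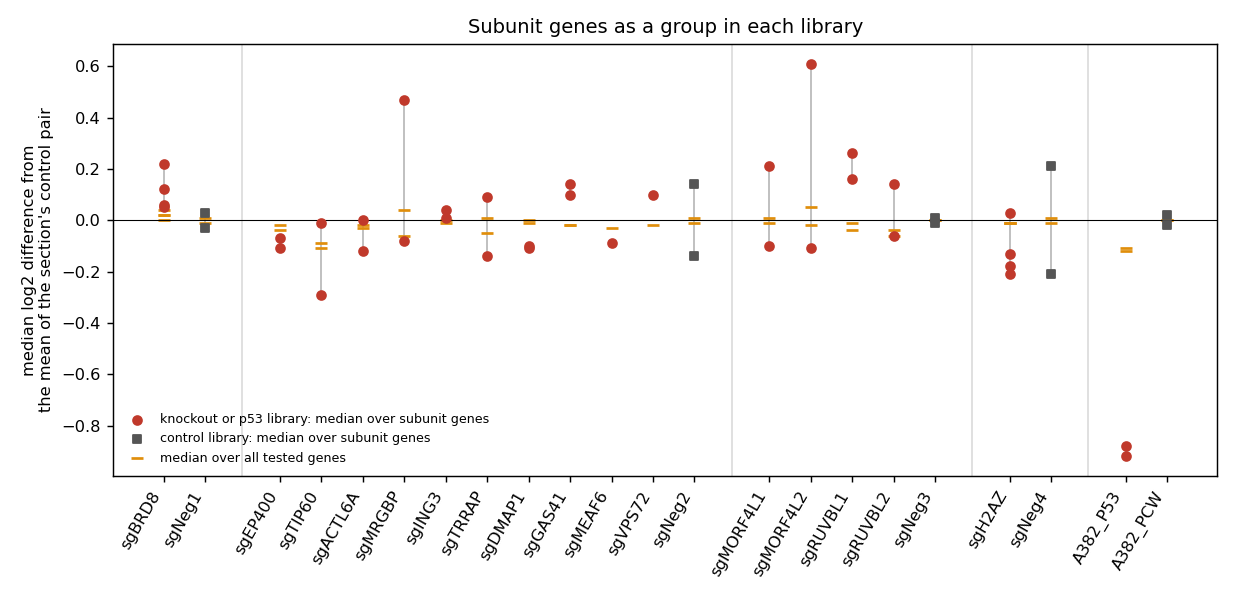
For each library, the median over subunit genes of the log2(FPKM + 1) difference from the mean of its section's control pair (red circles for knockout or p53 libraries, grey squares for controls), with the median over all tested genes as an orange dash and grey lines between sections. The A382_P53 libraries lie at −0.88 and −0.92, while the sgNeg2 and sgNeg4 pairs spread over −0.14 to 0.14 and −0.21 to 0.21.

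In BRD8 knockout cells the subunit genes rose more often than they fell, by small amounts. Of 79 tested, 26 (32.9%) were called higher and 5 (6.33%) lower, beside 24.2% higher and 21.7% lower among all 8458 tested genes, of which 45.9% were called. The median difference was 0.12 in the members and 0.02 over all genes. CYC1 had 74.0, 80.2, 73.7 and 75 FPKM in sgBRD8, against 47.3 and 53.7 FPKM in sgNeg1 (0.58 ± 0.07, adjusted p = 0.000128). All 4 knockout libraries stood above both controls in this gene, which gave the largest rise. In the same complex UQCRFS1 rose by 0.43, while the core protein UQCRC1 fell by 0.19.

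**Figure D4:**
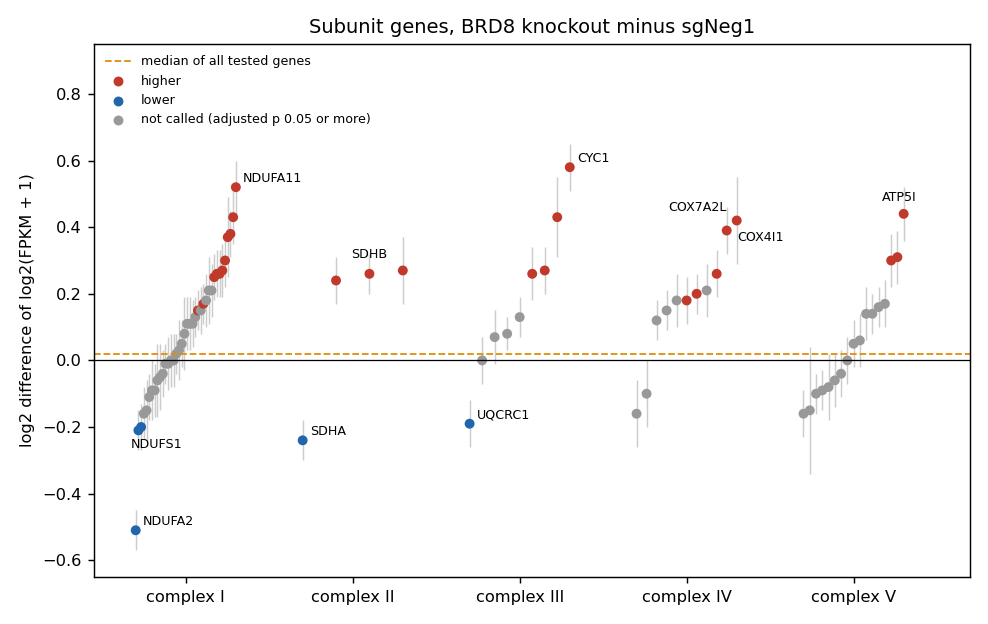
Each point is a subunit gene by respiratory complex, with its difference sgBRD8 minus sgNeg1 on the log2(FPKM + 1) scale and a bar of 1 SE. Red points were called higher, blue lower and grey not called, and the dashed line is the median of all tested genes (0.02). Most called points lie above 0, with CYC1 at 0.58 and NDUFA2 at −0.51 as the extremes.

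In complex I, 11 genes were called higher and 3 lower of 38. NDUFA11, an accessory membrane subunit, had 74.1, 80.8, 76.3 and 71.9 FPKM in sgBRD8, against 48.3 and 57.2 FPKM in sgNeg1 (0.52 ± 0.08, adjusted p = 0.000519). NDUFV3 and NDUFV1 rose by 0.43 and 0.30. NDUFA2, an accessory subunit of the matrix arm, fell, with 34.0, 33.7, 31.4 and 33.4 FPKM in sgBRD8, against 48.7 and 46.3 FPKM in sgNeg1 (−0.51 ± 0.06, adjusted p = 0.000115). In both genes the knockout and control libraries did not overlap. The core subunit NDUFS1 fell by 0.21.

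All 4 complex II genes were called, SDHB, SDHC and SDHD higher by 0.26, 0.24 and 0.27, and SDHA lower by 0.24. SDHA had 30.0, 30.0, 28.1 and 28.1 FPKM in sgBRD8 and 33.5 and 35.6 FPKM in sgNeg1, so SDHA, SDHB and SDHD were called in the opposite direction under p53. SDHC was too, but not with the length trend removed, where its p53 difference was 0.04. Under that scaling the BRD8 calls of SDHC (0.10) and SDHD (0.20) were lost. In complex IV 5 of 11 genes were called higher and none lower. COX4I1 ranged between 122 and 144 FPKM over the 4 sgBRD8 libraries, against 96.0 and 101 FPKM in sgNeg1 (0.39 ± 0.07, adjusted p = 0.00204), and COX7A2L, which helps complexes III and IV to associate, rose by 0.42. COX5A rose by 0.26. Complex V had a median of 0.05, with 3 of 17 genes called higher, ATP5I (0.44), ATP5L (0.31) and ATP5D (0.30), the last named after its values were seen. ATP5A1 (−0.09) and ATP5B (0.14) were not called.

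The balance of rises and falls in BRD8 depended on the scaling and on either control library. It was 20 higher and 12 lower with the length trend removed and 19 and 17 with the level trend removed, with member medians of 0.03 and −0.01. Calls over all genes under those scalings are not given here. Without the first sgNeg1 library 13 of 79 members were called, 9 higher and 4 lower, beside 1168 higher and 1157 lower of 8322 genes. Without the second it was 17, of which 16 higher, beside 1442 higher and 1125 lower of 8323 genes. Calls thus dropped among all genes too. Losing the first ended the calls of NDUFV1 (0.16), SDHB, SDHC, SDHD (0.14), COX5A, COX7A2L and ATP5L, and losing the second those of NDUFS1, SDHA, SDHC, UQCRC1 (−0.11) and UQCRFS1 (0.26). COX5A lost its call with the level trend removed (0.11), and SDHD, UQCRC1 and COX7A2L with no filter on low values. Guide 2 alone ended the calls of NDUFS1, SDHD (0.16) and COX7A2L (0.25), and guide 1 alone those of SDHC and UQCRC1. Leaving out 1 of the BRD8 libraries ended the call of SDHD for either guide 1 library, and of UQCRC1 for the first guide 1 library and for either guide 2 library. CYC1, NDUFA11, NDUFA2, COX4I1, ATP5I and NDUFV3 kept their calls under every alternative run. Guide 1 alone gave 26 higher and 3 lower, and guide 2 alone 20 and 6.

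In the pathway lists, of 45 tested assembly factors 10 were called higher and 5 lower, beside 24.2% higher and 21.7% lower among all tested genes. NDUFAF4 (0.52), PET117 (0.52) and COA6 (0.45) were the largest rises and TTC19 (−0.47), FOXRED1 (−0.39) and ACAD9 (−0.38) the largest falls. Of 14 regulators 5 were higher and 1 lower. MYC had 5.27, 5.83, 5.79 and 5.18 FPKM in sgBRD8, against 2.67 and 2.40 FPKM in sgNeg1 (0.88 ± 0.07), NFE2L2 and TFB2M rose by 0.34 and 0.33, and NFE2L1 fell by 0.22. In the tricarboxylic acid cycle 8 of 17 were higher and 1 lower, and of 9 carriers 6 were higher and 1 lower. Of the 26 subunit genes called higher in BRD8, 24 were called lower under p53, 1 higher (NDUFV3) and 1 not called (NDUFC2, named after its values were seen). Of the 5 called lower in BRD8, 4 were also lower under p53 and SDHA was higher. Since 75 of 81 members were lower under p53, these counts were given without a test.

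TIP60, also called KAT5, is the acetyltransferase of the complex, and its transcript stood at 51.5% of sgNeg2 in the knockout. Of 84 tested, 11 were lower and 2 higher (15.5% called), beside 26.6% lower and 15.4% higher among all 11382 genes, of which 42.0% were called. The member median was −0.16 and that of all genes −0.09. NDUFS1 had 14.7 and 20.3 FPKM in sgTIP60, against 30.4 and 31.7 FPKM in sgNeg2 (−0.81 ± 0.14, adjusted p = 0.000393). Both TIP60 libraries were below both controls. In complex V the subunit c genes ATP5G2 (−0.57) and ATP5G3 (−0.52) and the head subunits ATP5D (−0.56) and ATP5C1 (−0.46) were lower, of which ATP5G3 and ATP5C1 were named after their values were seen. SDHC rose, with 17.5 and 19.5 FPKM in sgTIP60, against 14.9 and 13.7 FPKM in sgNeg2 (0.35 ± 0.11, adjusted p = 0.0168).

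These calls in TIP60 moved with the scaling and the libraries. Median centring gave 8 lower and 6 higher, the length trend removed 17 and 9, the level trend removed 14 and 14, and the 4 libraries fitted alone 3 and 1. Calls over all genes under these settings are not given here. Without the first sgNeg2 library, or without the second TIP60 library, 7 members were called, beside 1313 higher and 2364 lower of 11369 genes and 1507 higher and 2596 lower of 11285, and ATP5D was lost under either. Without the first TIP60 library 19 members were called, beside 1324 higher and 2615 lower of 11279 genes. ATP5G2 lost its call when any 1 of the 4 libraries was left out. SDHC lost its call without the second sgNeg2 or the second TIP60 library, with the length trend removed (0.4) and with the 4 libraries fitted alone (0.35). ATP5G2 (−0.57) and ATP5D (−0.56) lost theirs in that last fit too, and ATP5D with median centring (−0.46). NDUFS1 and COX6B2 kept theirs under every alternative. Among 52 tested assembly factors 9 were higher and 6 lower, beside 15.4% higher and 26.6% lower among all genes. UQCC1, a complex III factor, had 124 and 78.2 FPKM in sgTIP60, against 36.2 and 29.8 FPKM in sgNeg2 (1.55 ± 0.20), and COA1 and NUBPL rose by 1.39 and 0.84. TTC19, TMEM126B and NDUFAF5 fell by 0.79, 0.59 and 0.54. Of 18 regulators 3 were higher and 5 lower, with MYC at 159 and 152 FPKM in sgTIP60, against 36.4 and 41.3 FPKM in sgNeg2 (1.98 ± 0.18), GABPA and NRF1 higher by 0.35 and 0.30, and NFE2L1, ESRRA and TFB1M lower by 0.85, 0.63 and 0.55.

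COX6B2 was called in 4 knockouts, more than any other subunit gene, and it fell in each. It had 1.46 and 0.737 FPKM in sgTIP60, against 5.25 and 5.74 FPKM in sgNeg2 (−1.65 ± 0.17, adjusted p = 6.17e-06). In RUVBL2, an ATPase shared by several chromatin complexes, it had 1.58 and 1.93 FPKM, against 10.1 and 10.4 FPKM in sgNeg3 (−2.04 ± 0.18, adjusted p = 0.000161). In its partner ATPase RUVBL1 it had 2.51 and 2.84 FPKM, against the same sgNeg3 pair (−1.62 ± 0.18, adjusted p = 0.000854). These 3 knockouts left 17.1% to 26% of the control level. In TRRAP, a scaffold subunit, it had 3.66 and 2.79 FPKM, against 5.25 and 5.74 FPKM in sgNeg2 (−0.63 ± 0.17, adjusted p = 0.0264). That call was lost without the second TRRAP library (−0.48), without either sgNeg2 library (−0.68 and −0.57) and with no filter on low values (−0.63). EP400, with 3.35 and 3.97 FPKM, and ACTL6A, with 3.23 and 2.61 FPKM, also lay under both sgNeg2 libraries, but with adjusted p of 0.128 and 0.0624 they were not called. ING3, with 4.64 and 3.94 FPKM, MEAF6, with 4.06 FPKM, and VPS72, with 4.22 FPKM, lay under both sgNeg2 libraries as well and were not called.

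**Figure D5:**
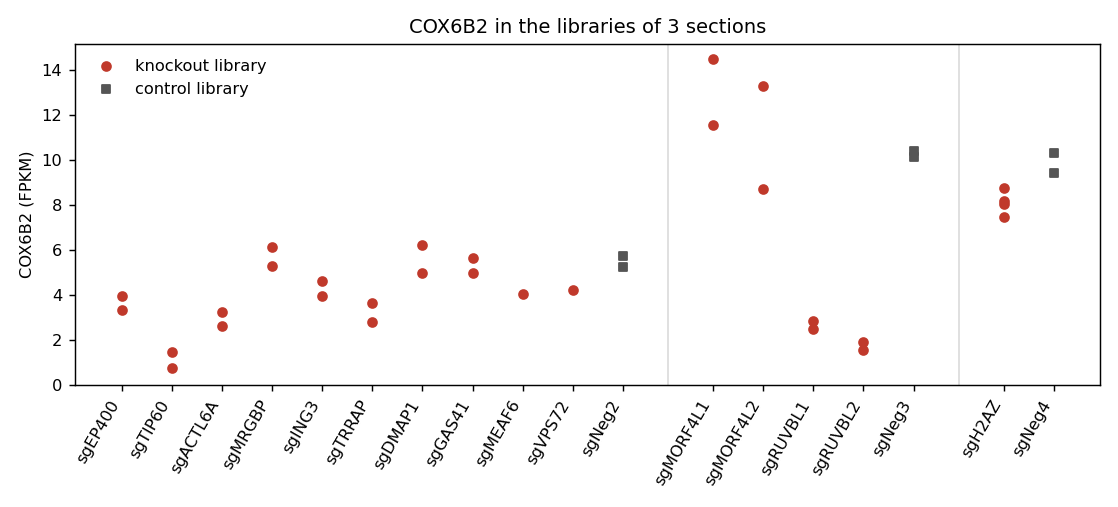
FPKM of COX6B2 in each knockout library (red circles) and control library (grey squares) of the sections of sgNeg2, sgNeg3 and sgNeg4, divided by grey lines, with the 2 identical columns left out. The TIP60, RUVBL1 and RUVBL2 libraries lie at 0.737 to 2.84 FPKM, and levels are comparable only within a section.

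In DMAP1, GAS41 and MRGBP COX6B2 ranged between 4.97 and 6.21 FPKM and overlapped sgNeg2, and none of them was called. In MORF4L1 it had 11.6 and 14.5 FPKM, and in MORF4L2 8.69 and 13.3 FPKM. In H2AZ it had 8.73, 8.06, 7.46 and 8.20 FPKM, against 9.40 and 10.3 FPKM in sgNeg4 (−0.25 ± 0.10, adjusted p = 0.200). Ordered by the difference from its own control pair, RUVBL2, TIP60 and RUVBL1 came lowest, and RUVBL1 against RUVBL2 directly gave 0.42 ± 0.18 (adjusted p = 0.917). The abundant form COX6B1, which makes up the usual subunit, was called in none of the 16 knockouts.

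SDHC was the other gene called in 4 comparisons, higher in BRD8, TIP60 and TRRAP and lower under p53. In TRRAP it had 19 and 21.7 FPKM, against 14.9 and 13.7 FPKM in sgNeg2 (0.47 ± 0.11, adjusted p = 0.0111), with both knockout libraries above both controls. This call was lost without the second TRRAP or the second sgNeg2 library (0.39 and 0.42) and with the libraries of the comparison fitted alone (0.47). With the length trend removed, SDHC lost its calls in BRD8 (0.1), in TIP60 (0.4) and under p53 (0.04). TIP60 and TRRAP share the sgNeg2 pair, so their values for SDHC and COX6B2 are not independent.

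The TRRAP transcript stood at 82.3% of sgNeg2 in its knockout (7.29 ± 1.33 FPKM in sgTRRAP and 8.85 ± 1.5 FPKM in sgNeg2, SD, n = 2 each), with overlapping libraries, and was not called (adjusted p = 0.44). In the libraries labelled TRRAP 4 of 84 members were called, beside 14.2% of all genes. Besides SDHC and COX6B2 these were ATP5S, a coupling factor, with 5.62 and 7.20 FPKM in sgTRRAP, against 3.67 and 3.39 FPKM in sgNeg2 (0.70 ± 0.16, adjusted p = 0.0116), and ATP5J2-PTCD1. ATP5S lost its call without the second TRRAP library or either sgNeg2 library. The count was 1 without the second TRRAP or second sgNeg2 library, 2 without the first sgNeg2 and 7 without the first TRRAP library. Over all genes 40 were higher and 32 lower without the second TRRAP library, and 957 higher and 1420 lower without the first. The member median was −0.08 and that of all genes −0.02. COA1, UQCC1 and ATPAF1 rose by 1.38, 0.77 and 0.51 among 5 assembly factors called higher of 52, and MYC by 1.09.

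ATP5J2-PTCD1 was called higher in TIP60 and TRRAP, where it had 5.24 and 1.01 FPKM and 4.44 and 4.63 FPKM, against 0.0 and 0.00225 FPKM in sgNeg2. PTCD1 was called lower in the same knockouts, by 1.70 and 2.72 log2 units. The sum of both rows was 5.24 and 4.09 FPKM in TIP60 and 4.44 and 4.63 FPKM in TRRAP, against 5.85 and 5.34 FPKM in sgNeg2. In the p53 controls, 1 A382_PCW library had 8.32 FPKM in the readthrough row and the other had 0.0 FPKM, while the sums were 8.32 and 8.22 FPKM. In these libraries the sum of the overlapping rows thus varied less than each row did. In TIP60 and TRRAP the sum still lay below that of both sgNeg2 libraries, and the calls of ATP5J2-PTCD1 are uncertain.

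In RUVBL1 and RUVBL2 knockouts 27.8% and 33.4% of the 11063 tested genes were called, and 1 and 3 of 84 subunit genes. In RUVBL1 the call was COX6B2, at a member median of 0.21 (all genes −0.02), with 6 members at an unadjusted p under 0.05, beside 4515 of all genes. In RUVBL2 NDUFV3 had 29.1 and 33.3 FPKM, against 20.9 and 19.5 FPKM in sgNeg3 (0.60 ± 0.17, adjusted p = 0.0235), and ATP5SL had 29 and 29.7 FPKM, against 40.7 and 36.7 FPKM in sgNeg3 (−0.38 ± 0.13, adjusted p = 0.0483). The knockout pairs did not overlap the controls in either gene, but both calls were lost when any 1 of the 4 libraries was left out. These counts used a spread shared with the MORF4L1 and MORF4L2 pairs. Fits of the 4 libraries of a comparison alone called 48 members in RUVBL1, 42 of them higher, and 22 in RUVBL2, 8 of them higher. Calls over all genes in those fits are not given here, so the members cannot be set against other genes. RUVBL1 and RUVBL2 differed from each other in 0.00904% of genes and in none of the members with limma (1 at an unadjusted p under 0.05, beside 594 of all genes).

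Some assembly factors were called in both. NDUFAF1 had 34.7 and 42.8 FPKM in sgRUVBL1 and 35.1 and 39.1 FPKM in sgRUVBL2, against 14.1 and 13.6 FPKM in sgNeg3 (1.41 and 1.36). COX19 rose by 1.07 and 1.11 and UQCC1 by 0.83 and 0.80, while LYRM7 fell by 0.56 and 0.46. Among regulators TFB2M rose by 0.47 in RUVBL1 and 0.53 in RUVBL2, GABPB2 rose by 0.55 and 0.51, and MTERF2 fell by 0.55 and 0.54. ESRRA rose by 0.41 and YY1 fell by 0.41 in RUVBL1. Of 52 assembly factors 4 were called higher and 2 lower in RUVBL1, and 7 and 1 in RUVBL2. Among all tested genes 27.8% and 33.4% were called in these knockouts, so the list was not called more often than other genes.

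No subunit gene was called with limma in the other 11 knockouts. In EP400, the large ATPase of the complex, 3.83% of all genes were called, and the member median was −0.09 (all genes −0.03). ATP5B had 570 and 524 FPKM in sgEP400 and 697 and 613 FPKM in sgNeg2 (−0.26 ± 0.21, adjusted p = 0.537). NUBPL (0.51) and MYC (0.74) were called higher from the lists. In H2AZ 6.02% of genes were called, with a member median of −0.11 (all genes −0.01) and 7 members at an unadjusted p under 0.05, beside 2338 of 11087 genes. In H2AZ CYC1 had 293, 256, 222 and 240 FPKM in sgH2AZ and 230 and 180 FPKM in sgNeg4 (0.31 ± 0.14, adjusted p = 0.249), and the groups overlapped. Without the second sgNeg4 library 19 of 84 members were called lower in H2AZ, beside 711 lower and 465 higher of 10985 genes, and without the first H2AZ guide 1 library 1 was. LYRM7 (0.47), GABPB1 (0.40) and MYC (0.47) were higher and TTC19 (−0.35) was lower in H2AZ.

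In ACTL6A 0.782% of all genes were called, in MRGBP 0.264%, in GAS41 0.94% and in ING3 0.0264%, and in DMAP1, MEAF6, VPS72, MORF4L1 and MORF4L2 0.0%. Of 84 members, those at an unadjusted p under 0.05 numbered 15 in MRGBP, beside 1459 of 11382 genes, and 6 in ACTL6A, beside 1776. In the same section they numbered 3 in GAS41 (1923 of all genes), 2 in ING3 (1085), 3 in DMAP1 (1021), 0 in MEAF6 (415), 2 in VPS72 (402) and 2 in EP400 (2237). They numbered 0 in MORF4L1, beside 85 of 11063 genes, and 1 in MORF4L2, beside 230. The member medians ran between −0.11 in DMAP1 and 0.23 in MORF4L2. Apart from ATP5J2-PTCD1, the extreme values were ATP5D in MRGBP (0.64, not called, named after its values were seen) and COX6B2 in ACTL6A (−0.73, adjusted p = 0.0624). CYC1 was the highest in GAS41 (0.57, adjusted p = 0.218), and the lowest in MORF4L1 was NDUFB3 at −0.11. COX5A had 105 and 214 FPKM in MORF4L2 and 129 and 136 FPKM in sgNeg3, and the second library alone, with the first left out, gave 43 of 84 members called higher, beside 962 higher and 353 lower of 11044 genes. In MRGBP 2 members were called higher without its second library, beside 119 higher and 119 lower of all genes, and in ACTL6A 1 lower without its first, beside 111 higher and 269 lower.

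TIP60 and EP400 belong to the same complex, and a direct comparison of the knockouts called 6 of 84 members, beside 21.3% of all genes. COX6B2 had 1.46 and 0.737 FPKM in sgTIP60, against 3.35 and 3.97 FPKM in sgEP400 (−1.17 ± 0.17, adjusted p = 0.000405). NDUFS1 had 14.7 and 20.3 FPKM in sgTIP60, against 28.6 and 26.1 FPKM in sgEP400 (−0.63 ± 0.14, adjusted p = 0.00663). In each gene both TIP60 libraries were lower than both EP400 libraries. UQCRC2, NDUFA4L2 and COX7B2 were also lower in TIP60, by 0.36, 0.55 and 0.96, and ATP5J2-PTCD1 was higher. The median difference of −0.07 was the same in the members and over all genes. The count was 2 or 3 when either EP400 library or the first TIP60 library was left out.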

How the data were processed

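Polyadenylated RNA of 48 libraries was measured. The authors deposited FPKM values in 1 table of 19102 genes. Per the submitters' processing notes, the tools were TopHat2, Cufflinks and Cuffdiff and the build was hg19; versions are not given in the sources used here. FPKM depends on the transcript models used and on how fragments of overlapping genes are assigned, and short genes are the most sensitive to fragment length. Every column name fitted 1 library of the series, which left 0 columns of other samples. In all, 46 libraries entered the fits.

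Values were fitted as log2(FPKM + 1), pseudocount 1, within each section with limma 3.58.1 in R 4.3.3 (1 level per target, empirical Bayes with intensity trend, two-sided) and Benjamini-Hochberg adjustment over all tested genes. For MEAF6 and VPS72, with 1 library each, the spread came from the rest of the section. The fit was tested on simulated data. Summaries used Python 3.11.15 and pandas 2.3.3.

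The members and lists were chosen with earlier results of these data known. Named genes were 10 core subunits in every comparison, up to 2 called genes per complex and direction in 8 comparisons and the extremes in the others, genes called in at least 4 comparisons, isoform pairs, irregular rows, targeted genes, and up to 3 called list members per direction. Alternatives changed the pseudocount (0.1), the filter (none, or a mean of at least 5 FPKM), the scaling, the replicate block and the libraries. Values of some withheld genes are not reported here, though they remain in the counts.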

Additional observations from a re-analysis of the deposited data

Results flagged for a closer look

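COX4I1 in the second library of BRD8 guide 1 stood at 144 FPKM, apart from the other 3 BRD8 libraries at 122 to 126 FPKM. It was the 1 outlying value among 32 sets of 4 values examined, each set being 1 named gene in the BRD8 or the H2AZ libraries, where chance alone marks about 1 in 20. TIP60 and EP400 knockouts differed by their direct test in 6 subunit genes. On the log2 scale the TIP60 minus EP400 differences were −1.17 for COX6B2, −0.96 for COX7B2, −0.63 for NDUFS1, −0.55 for NDUFA4L2, −0.36 for UQCRC2 and 1.81 for ATP5J2-PTCD1. COX7B2 had 0.397 and 0.32 FPKM in sgTIP60, against 2.06 and 1.27 FPKM in sgEP400, so it was near the detection limit. The ATP5J2-PTCD1 row shares fragments with PTCD1, and the sum of both rows was 5.24 and 4.09 FPKM in sgTIP60 and 5.48 and 5.1 FPKM in sgEP400. The part of PTCD1 in this difference was not tested, and the call of ATP5J2-PTCD1 is uncertain here too.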

How the results depend on the processing

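The 21 called values named under p53 kept their call in 251 of 252 alternatives, the exception being SDHC, at 0.04 with the length trend removed. Over all comparisons 53 such values had 698 alternatives, of which 635 kept the call and 62 lost it. Counts of called members that moved by over 1.5 times were these. With a mean of at least 5 FPKM required, TRRAP gave 1 and TIP60 against EP400 gave 1. With the length trend removed TIP60 gave 26, TRRAP 13, TIP60 against EP400 18, RUVBL1 17, RUVBL2 21, H2AZ 3, ACTL6A 1 and GAS41 1. With the level trend removed, chosen after seeing the data, TIP60 gave 28, TRRAP 15, TIP60 against EP400 14, RUVBL1 16, RUVBL2 14, H2AZ 4, ACTL6A 1, MRGBP 1 and GAS41 1. With the libraries of a comparison fitted alone TIP60 gave 4, TIP60 against EP400 2, RUVBL1 48, RUVBL2 22, and EP400, ACTL6A, MRGBP, GAS41 and RUVBL1 against RUVBL2 1 each. Median centring gave 3 in RUVBL1. Calls over all genes under these settings are not given here, so a change particular to the members cannot be read from the counts. The cause of these moves was not tested.

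The replicate block gave 6 in RUVBL1 and 5 in RUVBL2, and 27 in BRD8, against 31 without it, and UQCRC1 lost its BRD8 call under the block (−0.19). In targets with 1 library per guide, such as RUVBL1 and RUVBL2, the library number was also the guide number. There the block cannot be told apart from the guide, whereas in BRD8 and H2AZ the number ran within each guide. Same-numbered libraries correlated between −0.281 and 0.579 in their deviations, and no label says that a number marks a shared batch, so the numbers were not taken as pairs. A crossed replicate block in ACTL6A, added after seeing the data, gave 2. Leaving out 1 library at a time gave 13 to 35 in BRD8, 7 to 19 in TIP60, 1 to 7 in TRRAP, 2 to 4 in TIP60 against EP400, 1 to 2 in RUVBL1, 1 to 1 in RUVBL2, 0 to 1 in ACTL6A, 0 to 2 in MRGBP, 0 to 43 in MORF4L2, 0 to 19 in H2AZ and 78 to 79 under p53. With 1 library left in a group, that library was assumed to vary like the rest of its section. Depth limits weak rows such as COX7B2 most.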

Other observations

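The column shared by the labels MEAF6 guide 2 and VPS72 guide 2 put 77 of 84 tested subunit genes above both sgNeg2 libraries and 5 below both. The same counts over all tested genes are not given here, so these counts cannot be set against other genes. The members' median log2 difference from the sgNeg2 mean was 0.48 in this column, beside 0.01 over all tested genes. The members' share of summed FPKM in this column was 4.22%, against 3.77% and 3.40% in the sgNeg2 libraries. The second MORF4L2 library had a similar share, 4.21%, and a member median of 0.61 from the sgNeg3 mean, and the first MRGBP library had 4.27% and 0.47.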
